A study of Homo sapiens with 6 samples.

Results

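The genes described here are the 2 oxygen-regulated subunits of the hypoxia-inducible factors (HIFs), HIF1A and EPAS1, and 6 genes known as hypoxia targets: ADM, ANKRD37, BNIP3, BNIP3L, NDRG1 and LOX. They were taken by gene symbol from the deposited counts, where each of the 8 symbols had 1 entry among 24462 distinct symbols. Prolyl hydroxylase and glycolysis genes were kept out of this set and are used as context below. The libraries came from H460, an established human lung cancer line: 3 from cells kept for 24 h in RPMI medium without glutamine and with 10% dialyzed serum (depleted), and 3 from glutamine-replete cells (replete). The labels give 10% serum for routine culture, say nothing of the serum on replete cells during the 24 h, and give no oxygen level. No hypoxic sample was analysed here, and results come from 1 cell line.

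HIFs are pairs of an alpha subunit, such as HIF1A or EPAS1 (also called HIF-2 alpha), with the common partner ARNT. With oxygen at hand, prolyl hydroxylases (the EGLN proteins) mark the alpha subunits for the VHL ubiquitin ligase, so these proteins are controlled largely by degradation, and transcript counts do not report on that step. The hydroxylases use oxygen, iron and alpha-ketoglutarate, a metabolite that cells can make from glutamine. Stabilised HIF pairs bind a short core, ACGTG or GCGTG, in the hypoxia response elements of their target genes.

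The target promoters are shown because that core is what the targets share in textbook accounts. RefSeq promoter windows (GRCh38.p14) were matched for 6 of the 8 genes, and the 4 target genes among them are printed as the 250 bases before the most upstream listed start, on the strand of the gene, with each ACGTG or GCGTG on either strand in capitals (CACGT and CACGC are the reverse-strand forms, and CACGTG holds ACGTG on both strands).
ADM, chr11:10304823-10305072, plus strand, 1 core:
ADM: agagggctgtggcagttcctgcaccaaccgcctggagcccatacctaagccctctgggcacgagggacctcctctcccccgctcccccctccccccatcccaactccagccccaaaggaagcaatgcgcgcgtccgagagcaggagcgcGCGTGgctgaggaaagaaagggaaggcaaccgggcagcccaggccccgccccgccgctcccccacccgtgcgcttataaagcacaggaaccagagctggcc
ANKRD37, chr4:185396591-185396840, plus strand, 3 cores of which 2 overlap:
ANKRD37: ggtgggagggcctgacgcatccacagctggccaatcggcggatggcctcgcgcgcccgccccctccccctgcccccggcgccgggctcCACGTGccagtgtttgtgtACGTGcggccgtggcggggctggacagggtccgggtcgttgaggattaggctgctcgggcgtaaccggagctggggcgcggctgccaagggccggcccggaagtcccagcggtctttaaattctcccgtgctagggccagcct
BNIP3, chr10:131981924-131982173, minus strand, 6 cores of which 2 overlap:
BNIP3: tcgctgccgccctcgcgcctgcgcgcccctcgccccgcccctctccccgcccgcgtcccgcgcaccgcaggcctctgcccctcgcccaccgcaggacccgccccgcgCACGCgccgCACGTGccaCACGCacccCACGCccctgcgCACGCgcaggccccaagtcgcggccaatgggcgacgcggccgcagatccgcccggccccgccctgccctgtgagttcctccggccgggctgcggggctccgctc
LOX, chr5:122078260-122078509, minus strand, 4 cores:
LOX: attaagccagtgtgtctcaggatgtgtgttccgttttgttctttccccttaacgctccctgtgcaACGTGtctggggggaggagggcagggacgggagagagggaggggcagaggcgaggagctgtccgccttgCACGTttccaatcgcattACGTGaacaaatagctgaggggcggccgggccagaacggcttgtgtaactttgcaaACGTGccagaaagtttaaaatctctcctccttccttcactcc
The same window held 1 GCGTG and no ACGTG in both HIF1A and EPAS1. Among 27305 promoter windows of this length, 43.1% held at least 1 core, 18.6% the ACGTG form and 31.9% the GCGTG form, so a match is a description of these letters. ADM, with 1 core, had the largest increase reported below, and BNIP3, with 6, was lower in depleted cells. Cores outside these 250 bases were not sought, and NDRG1 and BNIP3L had no matched window. A link between cores and the changes was not tested.

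Library totals ran from 8667798 to 10914899 counts in depleted and from 7550849 to 9028230 counts in replete libraries, and values are given as CPM, that is, counts relative to the total of their library. A symbol without a count could still stand for 3 counts, or 0.275 to 0.397 CPM, and this limit covers counting error only. Depleted replicate 2 stood apart, at 17.97 and 10.86 chi-square units per degree of freedom from the other depleted libraries, where all other pairs within a group had 1.496 to 3.712, so no library was a duplicate. The labels do not tell whether replicates are separate cultures, and p-values therefore describe a spread between libraries that may be technical. Of 12739 genes tested across the table with edgeR's quasi-likelihood test, 78.6% had an adjusted p under 0.05, 39.1% of all genes tested higher and 39.4% lower in depleted cells, which is the background for every count below. Of the epithelial and lung markers, KRT19 fell to 326 ± 47.2 CPM in depleted cells, against 1399 ± 13.0 CPM in replete cells (log2 fold change −1.87), KRT8 fell by 1.05, KRT18 did not pass (−0.06), and NKX2-1 rose by 2.83 at 1.83 ± 0.699 CPM in depleted and 0.276 ± 0.157 CPM in replete cells, entering the test through its depleted libraries alone. EPCAM averaged 0.207 CPM in depleted and 0.404 CPM in replete cells and CDH1 0 and 0.0421 CPM. The 6 endothelial markers, of a cell type known for high EPAS1, summed to at most 0.115 CPM in depleted and 0.665 CPM in replete libraries, with VWF, CDH5 and CLDN5 at 0 counts throughout, and the 6 blood cell markers summed to 0.808 to 1.26 and 2.10 to 4.04 CPM. The 6 fibroblast markers, 5 of which were tested, summed to 38.8 to 114.8 CPM in depleted and 28.5 to 41.8 CPM in replete libraries, and the highest value came from depleted replicate 3, without which the depleted libraries summed to at most 48.3 CPM. The part of these markers in the results was not tested.

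Both HIF alpha subunit genes and 4 of the 6 target genes were higher in glutamine-depleted cells, while the mitophagy receptor genes BNIP3 and BNIP3L were lower. All 8 passed the test, against 78.6% of all genes, 6 of them higher and 2 lower. In all 8 the CPM ranges of the groups did not overlap, as in 81% of all genes tested, of which 33.2% were higher and 47.8% lower in depleted libraries as shares of all genes tested. A count of passing genes says little against such a background, so the sections below turn on the size and direction for each gene. Log2 fold changes are depleted over replete on trimmed-mean (TMM) scaling, from which scaling by library totals moves the median gene by −0.227, and CPM values use library totals.

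**Figure D1:**
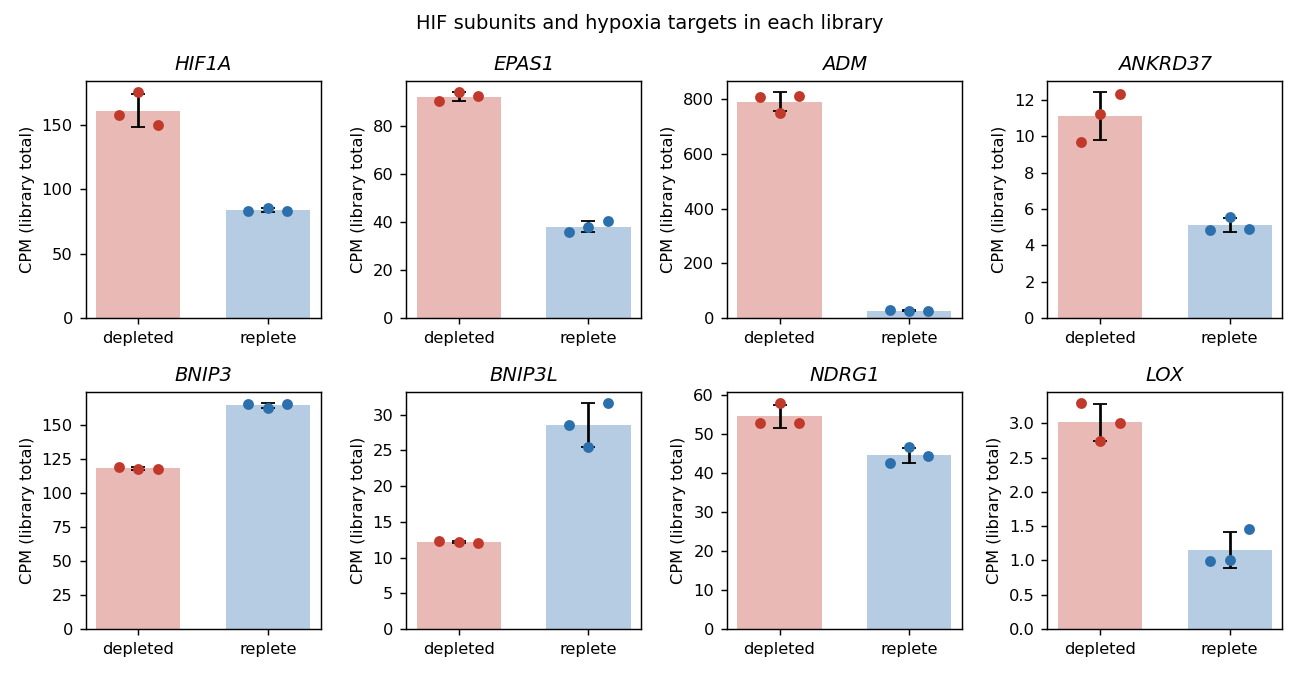
CPM of the 8 genes in the 3 depleted (left) and 3 replete (right) libraries, each panel with its own linear axis from 0, where points are libraries, bars are means and error bars are 1 SD. The groups are apart in every panel, and ADM, at 789 against 28.1 CPM, has the widest gap.

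HIF1A, the widely expressed alpha subunit, had 157, 175 and 149.98 CPM in depleted libraries, against 83.2, 85.6 and 82.9 CPM in replete libraries. All depleted libraries lay above all replete ones, and depleted replicate 2 was the highest. The mean was 160.8 ± 12.9 CPM in depleted and 83.9 ± 1.496 CPM in replete cells (SD, n = 3 each), and the log2 fold change was 1.17 with an SE of 0.08 (edgeR adjusted p = 3.22e-08). By size of increase it was at place 2399 of 12739, so many genes rose more.

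The HIF1A counts stood in a different ratio to those of an antisense gene in depleted and replete libraries. HIF1A-AS2 is an antisense RNA gene that the RefSeq gene table places across the end of HIF1A, the stretch from which 3′-end libraries draw their reads, and its counts nearly equalled those of HIF1A in replete libraries. There were 1332, 1171 and 989 HIF1A-AS2 counts beside 1717, 1529 and 1300 HIF1A counts in depleted libraries, against 740, 669 and 620 beside 751, 678 and 626 in replete libraries. HIF1A-AS2 thus came to 77.6%, 76.6% and 76.1% of the HIF1A count in depleted libraries and to 98.5%, 98.7% and 99.0% in replete libraries. The groups did not overlap, with a difference of −22.0 percentage points (exact two-sided permutation p = 0.1, the smallest that 3 against 3 libraries can give).

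No source used here says that counting kept the strands apart. Reads of the sense and antisense gene therefore cannot be told apart, and whether the same reads were counted for both symbols was not tested. Counts under the HIF1A-AS2 symbol, whichever gene their reads came from, averaged 123 ± 10.1 CPM in depleted cells, against 82.9 ± 1.42 CPM in replete cells (n = 3 each, log2 fold change 0.80, edgeR adjusted p = 1.46e-06). The HIF1A counts in excess of HIF1A-AS2 numbered 385, 358 and 311 in depleted libraries and 11, 9 and 6 in replete libraries. That excess is a difference of 2 counts, so no fold or counting interval is given for it. HIF1A-AS2 was singled out after its values were seen.

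**Figure D2:**
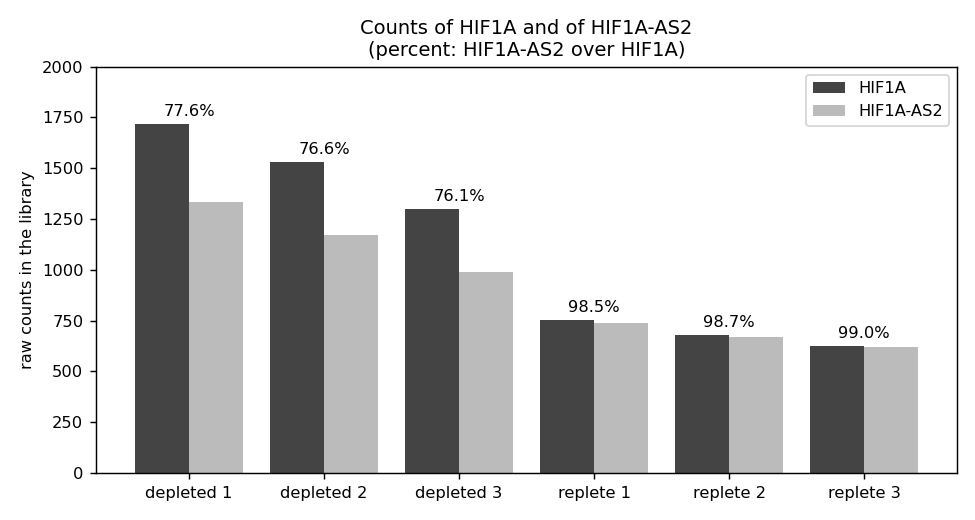
Raw counts of HIF1A (dark) and HIF1A-AS2 (light) in each library, depleted on the left and replete on the right, with HIF1A-AS2 as a percent of HIF1A above each pair. The bars of a pair are almost level in the replete libraries, at 98.5% to 99.0%, and differ in the depleted ones, at 76.1% to 77.6%.

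EPAS1, the alpha subunit best known from endothelium and kidney cancer, had 90.4, 94.0 and 92.4 CPM in depleted libraries, against 35.9, 37.9 and 40.7 CPM in replete libraries. The depleted libraries were close together and all above the replete ones. EPAS1 averaged 92.3 ± 1.81 CPM in depleted and 38.1 ± 2.40 CPM in replete cells (n = 3 each), and the log2 fold change was 1.502 with an SE of 0.09 (edgeR adjusted p = 4.11e-09). No counted gene was matched by name to exons shared with EPAS1 in the GENCODE 29 annotation. That search did not return HIF1A-AS2 for HIF1A, which came from the RefSeq gene table. Whether the EPAS1 counts include reads of another gene was not tested.

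Within a library, the ratio of HIF1A to EPAS1 counts does not depend on scaling. It was 1.74, 1.86 and 1.62 in depleted libraries, against 2.32, 2.26 and 2.04 in replete libraries. The ranges did not overlap, and the ratio was lower in depleted cells by a factor of 0.790 (log2 difference −0.34, exact two-sided permutation p = 0.1, the smallest possible here). The limit given above for reads of HIF1A and HIF1A-AS2 holds for this ratio too.

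ARNT, the partner of both alpha subunits, had a log2 change of 0.76 (SE 0.10, edgeR adjusted p = 1.80e-05), at 55.0 ± 5.36 CPM in depleted and 38.0 ± 3.37 CPM in replete cells. ARNT2, its relative, had few counts, at 0.772 ± 0.623 and 1.19 ± 0.878 CPM (adjusted p = 0.532 by edgeR). HIF3A was not tested, at 0 CPM in depleted and 0.0441 CPM in replete cells.

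Of 20 tested HIF partners and regulators, 11 rose, 2 fell and 7 did not pass (median log2 fold change 0.49, against −0.02 over all genes tested). Among all genes tested, 39.1% were higher and 39.4% lower. The coactivator genes CREBBP and EP300, whose acetyltransferases bind HIF alpha subunits, rose most, CREBBP to 108.6 ± 3.23 CPM in depleted cells against 24.6 ± 2.64 CPM in replete cells (2.37 on the log2 scale, edgeR adjusted p = 1.76e-10), and EP300 to 64.9 ± 0.680 against 17.7 ± 0.210 CPM (2.10). Genes whose products restrain HIF alpha moved both ways. The prolyl hydroxylase gene EGLN1 reached 106 ± 9.07 CPM against 34.2 ± 2.28 CPM (1.87 on the log2 scale, edgeR adjusted p = 1.27e-09), and EGLN2 rose by 1.9992. HIF1AN, which encodes the asparaginyl hydroxylase FIH, rose by 1.19, and VHL by 0.56. The VHL ligase subunit genes RBX1, CUL2 and ELOB (listed as TCEB2) did not pass, with log2 fold changes of −0.19, −0.38 and 0.07. Their partner ELOC (TCEB1) rose by 0.41, although the CPM ranges of the groups overlapped. For RBX1 and CUL2 the ranges did not overlap and the depleted libraries were lower, as in 47.8% of all genes tested.

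EGLN3, a prolyl hydroxylase gene that is itself a well-known HIF target, went the other way. It had 0.183, 0.573 and 0.461 CPM in depleted libraries, against 2.88, 2.53 and 2.91 CPM in replete libraries (log2 fold change −2.56, edgeR adjusted p = 5.50e-05). It entered the test through its replete libraries alone, since no depleted library reached the filter's level. RACK1, listed as GNB2L1 and known to promote oxygen-independent HIF1A breakdown, fell by 0.32.

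ADM, which encodes the secreted vasodilator peptide adrenomedullin, showed the largest change of the 8 genes. It had 808, 750 and 811 CPM in depleted libraries, against 30.3, 27.5 and 26.4 CPM in replete libraries. Even the lowest depleted library was far above the highest replete one. ADM averaged 789 ± 34.4 CPM in depleted and 28.1 ± 2.05 CPM in replete cells (n = 3 each), 5.04 on the log2 scale with an SE of 0.08 (edgeR adjusted p = 8.31e-14), and a ratio of pooled counts per library total of 28.0 (95% counting interval 26.0 to 30.3). ADM was at place 108 of 12739 by size of increase and at place 7 by p.

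Of 9 other listed genes of the adrenomedullin system, 4 were tested, 2 of which rose and 2 fell, beside 39.1% and 39.4% of all genes tested. CALCB, a related peptide gene of the calcitonin family, was too scarce to be tested, with 12, 13 and 4 counts in depleted libraries and 0 in every replete library, and CALCA, its relative, averaged 0.107 CPM in depleted cells with 0 counts in replete libraries. ADM2, a related peptide gene, had 4.67, 5.96 and 6.46 CPM in depleted libraries, against 4.54, 4.55 and 3.71 CPM in replete libraries (0.63 on the log2 scale, edgeR adjusted p = 0.0147), and it did not pass with library totals alone (adjusted p = 0.0950), with upper quartile factors (0.0866), against a 1.5-fold change (0.307), without depleted replicate 3 (0.0556) or without replete replicate 3 (0.0627). PAM, the enzyme that amidates adrenomedullin, rose by 0.51 (edgeR adjusted p = 0.000265). CALCRL, the receptor through which adrenomedullin acts together with a RAMP coreceptor, had 7, 3 and 3 counts in depleted libraries and 17, 31 and 17 counts in replete libraries (log2 fold change −2.28, edgeR adjusted p = 0.000369), and it entered the test through its replete libraries alone. RAMP1, RAMP2 and RAMP3 were not tested, with at most 0.158 CPM on average in either group. ADM5 stood at the threshold, with −0.74 on the log2 scale (edgeR adjusted p = 0.0499944, with 3 replete libraries and 1 depleted library at the filter's level), which it missed under most alternatives, also without any single library except replete replicate 2 (adjusted p from 0.0666 to 0.191).

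ANKRD37, a small ankyrin-repeat protein gene used in hypoxia signatures, had 9.71, 11.2 and 12.3 CPM in depleted libraries, against 4.87, 5.56 and 4.90 CPM in replete libraries. The lowest depleted library lay well above the highest replete one. Over the groups there were 311 counts in depleted and 125 in replete libraries, a ratio of 2.15 per library total (95% counting interval 1.74 to 2.67), and the log2 fold change was 1.34 (SE 0.17, edgeR adjusted p = 8.89e-06). Exons of ANKRD37 overlap UFSP2 on the opposite strand, which had 346, 281 and 282 counts in depleted and 223, 203 and 174 counts in replete libraries (log2 fold change 0.62), and whether ANKRD37 counts include UFSP2 reads was not tested.

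NDRG1, a stress-responsive growth regulator induced by hypoxia and iron loss, had 52.8, 57.8 and 52.8 CPM in depleted libraries, against 42.4, 46.5 and 44.4 CPM in replete libraries. The groups were apart but close. Its mean was 54.5 ± 2.91 CPM in depleted and 44.4 ± 2.03 CPM in replete cells (n = 3 each), and the log2 fold change was 0.52 with an SE of 0.09 (edgeR adjusted p = 0.000166). It was 0.29 with library totals alone, and NDRG1 did not pass when tested against a 1.5-fold change (adjusted p = 0.671 with edgeR's glmTreat).

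The NDRG1 relatives fell. NDRG4, best known from heart and brain, had 1.19, 1.03 and 0.808 CPM in depleted libraries, against 30.3, 28.3 and 30.1 CPM in replete libraries (log2 fold change −4.61, edgeR adjusted p = 1.39e-10), and it met the filter through its replete libraries, with 1 depleted library at that level. NDRG3, whose protein is known as an oxygen-regulated lactate binder, averaged 18.7 ± 2.78 CPM in depleted and 62.4 ± 4.52 CPM in replete cells (−1.52), and NDRG2 averaged 2.999 ± 0.564 and 11.3 ± 0.804 CPM (−1.67).

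LOX, the secreted copper enzyme lysyl oxidase that crosslinks collagen and elastin, was the scarcest of the 8 genes. It had 36, 24 and 26 counts in depleted libraries, against 9, 8 and 11 counts in replete libraries, or 3.30, 2.75 and 2.9996 CPM against 0.997, 1.01 and 1.46 CPM. The groups did not overlap, with a ratio of 2.66 per library total (95% counting interval 1.72 to 4.23) and a log2 change of 1.62 (SE 0.29, edgeR adjusted p = 0.000216). LOX entered the test through its depleted libraries: 3 of these but 1 replete library reached the filter's 1.15 CPM, so a passing test adds little to the counts.

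LOX lies within the span of SRFBP1 on the opposite strand in GENCODE 29, with overlapping exons. SRFBP1 had 248, 220 and 208 counts in depleted libraries and 79, 89 and 65 counts in replete libraries, which is 1.56 on the log2 scale (edgeR adjusted p = 3.53e-07), similar in size to that of LOX, and whether the LOX counts include SRFBP1 reads was not tested.

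Of the LOX relatives, LOXL1, LOXL2 and LOXL3 fell. LOXL3 had 5.22, 5.27 and 5.88 CPM in depleted libraries, against 43.6, 49.0 and 46.1 CPM in replete libraries (log2 fold change −2.86, edgeR adjusted p = 3.22e-10). LOXL1 fell by 1.43, and LOXL2, also known as a hypoxia target, fell by 1.03. LOXL4 was too scarce to be tested, with 2, 0 and 10 counts in depleted and 0, 0 and 1 counts in replete libraries. Of the 6 tested genes of lysyl oxidase family and processing, 4 fell and the others did not pass, where 39.4% of all genes tested were lower. The fourth that fell was fibronectin FN1, a LOX-associated matrix protein, at 3683 ± 284 CPM in depleted and 6636 ± 142 CPM in replete cells.

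BNIP3, a mitochondrial outer membrane protein that recruits the autophagy machinery to mitochondria and a classical HIF target, had 119, 117 and 117 CPM in depleted libraries, against 164.9, 162 and 165.5 CPM in replete libraries. Both groups were tight and did not overlap. BNIP3 averaged 118 ± 1.11 CPM in depleted and 164 ± 1.73 CPM in replete cells (n = 3 each), and its log2 change was −0.25 (SE 0.07, edgeR adjusted p = 0.00508), and of −0.48 with library totals alone. It did not pass against a 1.5-fold change (adjusted p = 1 with edgeR's glmTreat).

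BNIP3L, its close relative also called NIX, had 12.3, 12.1 and 11.998 CPM in depleted libraries, against 28.6, 25.5 and 31.7 CPM in replete libraries. The depleted libraries were nearly level, and every replete library had more than double their CPM (pooled ratio 0.426, 95% counting interval 0.373 to 0.485). The log2 fold change was −1.01 (SE 0.13, edgeR adjusted p = 7.63e-06). PNMA2, with an exon on the opposite strand of BNIP3L in GENCODE 29, had 7, 0 and 4 counts in depleted and 80, 68 and 63 counts in replete libraries, fewer than the BNIP3L counts of 134, 106 and 104 in depleted and 258, 202 and 239 in replete libraries, and sharing of reads was not tested.

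The ratio of BNIP3 to BNIP3L counts within a library was 9.68, 9.63 and 9.74 in depleted libraries, against 5.76, 6.35 and 5.22 in replete libraries. The BNIP3L counts thus fell more than those of BNIP3, by a log2 difference of 0.75 (exact two-sided permutation p = 0.1, the smallest possible here). The limit given above for reads of BNIP3L and PNMA2 holds for this ratio too.

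Other mitophagy receptors and their partners moved in both directions: of 14 tested genes, 7 rose, 2 fell and 5 did not pass (median log2 fold change 0.42). Over all genes tested, 39.1% were higher and 39.4% lower, with a median of −0.02. MAP1LC3B and GABARAPL1, whose proteins are the autophagosome anchors that such receptors bind, rose most, MAP1LC3B to 827 ± 11.5 CPM in depleted cells against 100.7 ± 0.254 CPM in replete cells (log2 fold change 3.26, edgeR adjusted p = 3.96e-13) and GABARAPL1 by 3.03. BNIP1 and BNIP2, named like BNIP3 for binding a viral relative of BCL2, rose by 2.21 and 1.52. PHB2, an inner membrane mitophagy receptor, fell by 1.25, and BCL2, a binding partner of BNIP3, fell by 0.58.

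**Figure D3:**
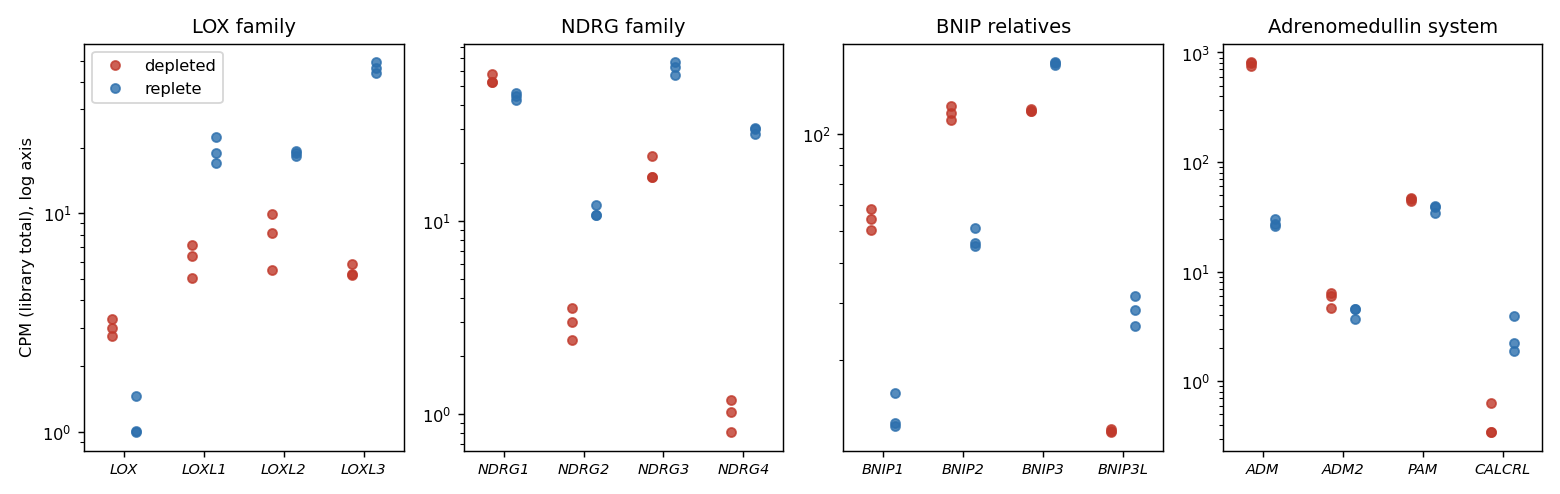
CPM per library on log axes for LOX, NDRG1, BNIP3, BNIP3L and ADM beside their relatives or pathway partners, depleted (red, left) and replete (blue, right). LOX and NDRG1 are higher in the depleted libraries where LOXL1 to LOXL3 and NDRG2 to NDRG4 are lower, BNIP1 and BNIP2 are higher where BNIP3 and BNIP3L are lower, and CALCRL is lower where ADM is higher.

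Hypoxia targets outside glycolysis moved both ways, as did all genes tested, of which 39.1% were higher and 39.4% lower in depleted cells. Of 31 tested genes that are not among the 8, 13 rose, 15 fell and 3 did not pass, with a median log2 fold change of −0.29. EGLN3, described above among the HIF regulators, is also among the 15 that fell. So is VLDLR, with 8, 10 and 2 counts in depleted libraries and 44, 78 and 53 counts in replete libraries. Like EGLN3, VLDLR entered the test through its replete libraries alone. STC2, a secreted glycoprotein, reached 2016 ± 216 CPM in depleted cells against 248 ± 9.84 CPM in replete cells (log2 fold change 3.25, edgeR adjusted p = 4.30e-12). The circadian repressor BHLHE41 and the ephrin EFNA1 rose by 3.26 and 2.13. VEGFA, the angiogenic growth factor, had 102, 59.4 and 96.9 CPM in depleted libraries, against 51.9, 43.1 and 39.996 CPM in replete libraries (log2 fold change 1.16, edgeR adjusted p = 0.00101), with depleted replicate 2 nearest to the replete range.

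The decreases with the smallest p on this list were in CA12, ANGPTL4 and PDK1. CA12, a membrane carbonic anhydrase, had 1.28, 2.06 and 1.4998 CPM in depleted libraries, against 46.96, 46.2 and 50.3 CPM in replete libraries (log2 fold change −4.67, edgeR adjusted p = 5.29e-11). ANGPTL4, a secreted lipase inhibitor, fell by 3.14. PDK1, the kinase that restrains pyruvate dehydrogenase, averaged 15.4 ± 0.751 CPM in depleted and 76.9 ± 1.93 CPM in replete cells (−2.09). CA9, the carbonic anhydrase often used as a hypoxia readout, had no count in any library.

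Among 19 glycolytic hypoxia targets, 14 fell, 3 rose and 2 did not pass (median log2 fold change −0.60), where 39.4% of all genes tested were lower and 39.1% higher. PFKFB4, among the 14, had 2, 7 and 2 counts in depleted libraries and 33, 16 and 10 counts in replete libraries. It entered the test through its replete libraries alone. The hexokinase gene HK2 and the glucose transporter genes SLC2A3 and SLC2A1 fell by 1.76, 1.16 and 1.17, and ENO1, PFKFB3 and PFKP rose by 0.44, 0.56 and 0.36. PFKP did not pass with library totals alone (adjusted p = 0.229).

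**Figure D4:**
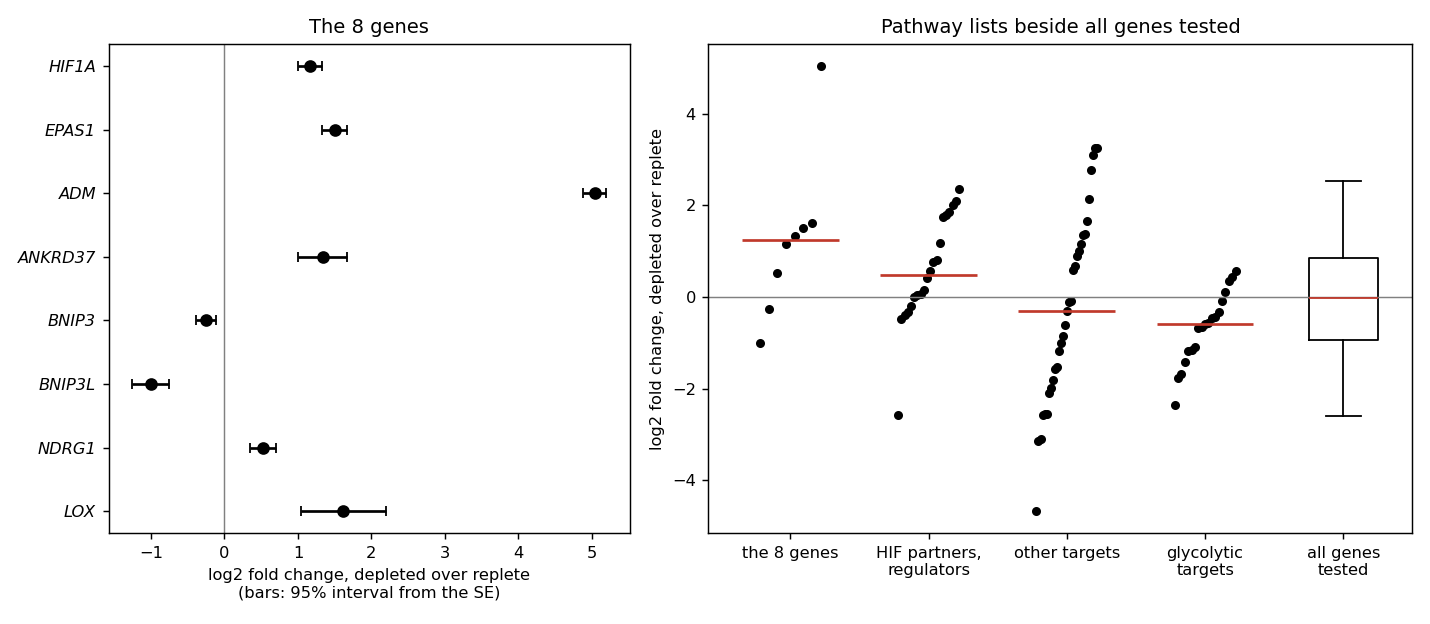
Left, log2 fold changes (depleted over replete) of the 8 genes with 95% intervals from the SE; right, log2 fold changes of each tested gene in the 8, in 3 pathway lists and over all 12739 genes tested (box, quartiles; whiskers, 5th to 95th percentile), with medians in red. The other targets range on both sides of 0 with a median of −0.29, and the glycolytic targets lie mostly below 0 with a median of −0.60.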

How the data were processed

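RNA was measured in 6 H460 libraries made from 500 ng of total RNA with a Lexogen QuantSeq 3′ kit, per the labels. Bowtie2, edgeR and hg19 appear in the submitters' processing notes. How reads were counted, with which annotation and whether by strand is not given in the sources used here. Each deposited file gives the raw counts of 1 library by gene symbol. Counts of the 286 symbols on several of the 25737 entries were summed. The whole table was filtered with filterByExpr (minimum count 10, minimum total 15), scaled by TMM and tested by quasi-likelihood with robust dispersion in edgeR 4.0.16 (R 4.3.3, two-sided, Benjamini-Hochberg threshold 0.05). SE is the log2 fold change over the root of F. Alternatives used limma 3.58.1 and DESeq2 1.42.0. On simulated counts with 12599 genes tested, 97 of 100 genes changed by 1 on the log2 scale and 100 of 100 changed by 2 were recovered, with 8 false calls of 205. Those counts had far fewer changed genes than the data, the same dispersion for every gene and no library standing apart. The recovery therefore checks the code and does not carry over to these libraries.

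The genes and lists were chosen with earlier results of these data known. Named genes are the 8, per list the 3 higher and 3 lower genes of smallest p, and the NDRG and adrenomedullin genes. ARNT, ARNT2, HIF3A, VHL, EGLN2, HIF1AN, VEGFA, VLDLR, PFKFB4, CA9, LOXL2, LOXL4, RBX1, CUL2, ELOB, ELOC, the marker genes, BNIP2 and the overlapping genes were named after their values were seen. GENCODE 29 and RefSeq, both on GRCh38, served for names, overlaps and promoters, so no gene positions in hg19 are given.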

Additional observations from a re-analysis of the deposited data

How the results depend on the processing

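Across 16 alternatives (15 for ANKRD37 and LOX, whose mean CPM was under 10), HIF1A, EPAS1, ADM, ANKRD37, BNIP3L and LOX kept their direction and their side of the threshold. BNIP3 (−0.25) and NDRG1 (0.52) kept theirs except against a 1.5-fold change, where neither passed. LOX entered the test through its depleted libraries, so its passing adds little to its counts here too. The log2 fold change ran from 0.94 to 1.22 for HIF1A, 1.28 to 1.54 for EPAS1, 4.81 to 5.07 for ADM, 1.11 to 1.44 for ANKRD37, −0.48 to −0.23 for BNIP3, −1.23 to −0.94 for BNIP3L, 0.29 to 0.56 for NDRG1 and 1.39 to 1.80 for LOX. Counts over all genes were 4987 higher and 5025 lower, 3324 and 3455 against 1.5-fold, 4132 and 5924 with library totals alone, and 4691 to 5257 and 4826 to 5368 with 1 library left out. List counts are given here only where they changed by more than a factor of 1.5, and several others shifted by smaller factors. Library totals alone gave 4 lower HIF partners and regulators in place of 2, and 1 higher adrenomedullin gene in place of 2. Without depleted replicate 2, an alternative added after seeing the data, 1 adrenomedullin gene was lower in place of 2. With 1 library left out, the log2 difference was −0.40 to −0.29 for the HIF1A to EPAS1 ratio and 0.68 to 0.82 for the BNIP3 to BNIP3L ratio, and the HIF1A-AS2 difference was −22.4 to −21.7 percentage points, the last also added after seeing the data. The cause was not tested for any of these. For 43 of the other named genes, 654 of 682 values kept direction and side of the threshold, 28 no longer passed and 0 reversed. RBX1, CUL2, ELOB, ELOC, ARNT2, VLDLR, PFKFB4, the marker genes and the nearest-profile genes given below were not followed singly through the alternatives. Against a 1.5-fold change, VHL, RACK1, PAM, ADM2, ADM5, ENO1, PFKFB3, PFKP, FN1, BCL2 and UFSP2 did not pass, so their changes are small or imprecise.

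Replicate numbers gave no clear pairing of the samples (correlations of deviations 0.119, 0.00611 and 0.0366 for same-numbered pairs, and not every library correlated best with its own number). With 3 libraries per group, such correlations cannot exclude pairing. With the replicate block, 4941 genes were higher and 4999 lower, and all 8 genes still passed, LOX with the limit just given. Few counts in at least 1 group limit the precision for LOX, CALCRL, EGLN3, VLDLR, PFKFB4, ARNT2, ADM5 and PNMA2.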

Other observations

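The genes whose log2 CPM profiles over the 6 libraries lay nearest to those of the HIF alpha subunits, among 8506 others with a mean of at least 10 CPM, are given as a description with no test, since the 2 groups dominate such profiles. For HIF1A they were the amino acid transporter gene SLC7A6 (distance 0.0758, log2 fold change 1.12), the zinc finger gene ZNF585B (0.101, 1.19) and TAX1BP3 (0.102, 1.19), which encodes a PDZ domain protein. For EPAS1 they were the ubiquitin ligase gene TRIM38 (0.0838, 1.51), TFE3 (0.105, 1.48), a transcription factor of lysosomal genes, and the guidance molecule gene SEMA3A (0.115, 1.46).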
